A study of Mus musculus with 31 samples.

Results

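Far intergenic peaks are regions of accessible chromatin that lie between coding genes, often in gene deserts, and away from any known coding promoter. They were taken from the ATAC-seq peak list of parental NIH-3T3 cells as the peaks on chromosomes 1 to 19 whose summit was outside every protein-coding gene of the GENCODE M21 annotation and more than 200 kb from every transcription start site (TSS) of such a gene. The rule gave 3427 of the 63456 peaks, or 5.40%. It used position only, so the height, width and sequence of the peaks were free to vary. By the RefSeq annotation of the same genome, 3282 of them (95.8%) also met the rule, 34 lay inside a coding gene and 111 were within 200 kb of the start of one.

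The study asked how the binding of transcription factors (TFs) to mitotic chromosomes relates to their behavior in interphase, and used ATAC-seq to follow chromatin accessibility in NIH-3T3 cells that overexpress a TF. Its 31 ATAC-seq samples are the parental line, 26 samples with 1 of 13 overexpressed TFs and 4 samples with the activator rtTA3G alone. Only the parental library was analysed here, and the other 30 samples were not. NIH-3T3 is an immortalized mouse embryonic fibroblast line, and the labels of this library list neither a transgene nor doxycycline. Nuclei of 50000 cells were incubated for 30 min with 0.5 µM Tn5, a transposase that inserts sequencing adapters into DNA free of nucleosomes, and the labels give 12 cycles of PCR. The line stands for fibroblasts in culture and not for a tissue. All 10 fibroblast marker genes examined, among them Col1a1, Fn1 and Vim, had a peak within 1 kb of a TSS. This held for 1 of 5 epithelial genes (Krt8) and 1 of 5 blood genes (Spi1). The fibroblast peaks ran from 12 fragments at the summit for Thy1 and 22 for Prrx1 to 117 for Fn1. Krt8 had 22 and Spi1 18, so the lowest fibroblast peaks were no taller than these. Across all coding genes, 55.0% had such a peak. The library had no replicate and the peaks in it are not replicates of each other, so no difference below was tested. The intervals given are exact 95% intervals (binomial for shares, Poisson for counts) and cover counting error only.

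Most regulatory DNA of a mammalian genome lies outside promoters. Enhancers bind TFs, are depleted of nucleosomes where they do so, and can act on a gene over large distances, skipping others on the way. Large gene deserts often flank genes for developmental TFs and can hold many enhancers of a single gene. In fibroblasts the AP-1 factors, dimers of JUN and FOS proteins, bind the heptamer TGACTCA at many enhancers and are known to help keep them open. CTCF, in contrast, binds a long motif at boundaries of chromatin loops.

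The sequences below show what far intergenic summits look like, in mm10 (GRCm38), on the forward strand, as the summit base with 50 bp to either side. Capitals mark TGACTCA on either strand, which reads TGAGTCA on the opposite one. The list opens with the 10 tallest peaks, named after the nearest coding TSS, because they show how varied the best covered members are.
Tnc peak, chr4:64497850-64497950: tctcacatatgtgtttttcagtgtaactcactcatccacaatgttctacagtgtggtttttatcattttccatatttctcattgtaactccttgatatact
Pcmtd1 peak, chr1:7397974-7398074: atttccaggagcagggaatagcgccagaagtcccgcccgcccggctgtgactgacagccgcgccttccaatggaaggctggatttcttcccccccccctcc
Gm31371 peak, chr8:20122248-20122348: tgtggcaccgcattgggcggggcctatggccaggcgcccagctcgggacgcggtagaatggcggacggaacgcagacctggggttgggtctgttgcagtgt
Rgs18 peak, chr1:145344543-145344643: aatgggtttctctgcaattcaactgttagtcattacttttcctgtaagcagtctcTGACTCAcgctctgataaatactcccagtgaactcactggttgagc
Myt1l peak, chr12:29291134-29291234: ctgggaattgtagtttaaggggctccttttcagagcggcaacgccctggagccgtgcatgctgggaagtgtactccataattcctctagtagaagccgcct
Has2 peak, chr15:56420810-56420910: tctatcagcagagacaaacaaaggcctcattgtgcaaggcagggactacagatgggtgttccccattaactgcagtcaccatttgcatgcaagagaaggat
Zfat peak, chr15:67781012-67781112: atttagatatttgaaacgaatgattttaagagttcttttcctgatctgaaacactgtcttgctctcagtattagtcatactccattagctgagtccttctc
Myom2 peak, chr8:15519883-15519983: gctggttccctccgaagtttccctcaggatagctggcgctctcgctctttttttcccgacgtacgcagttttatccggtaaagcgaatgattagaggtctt
Fggy peak, chr4:95317960-95318060: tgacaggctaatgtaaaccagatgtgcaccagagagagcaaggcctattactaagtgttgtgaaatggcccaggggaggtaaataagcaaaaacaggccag
Cntn5 peak, chr9:11380637-11380737: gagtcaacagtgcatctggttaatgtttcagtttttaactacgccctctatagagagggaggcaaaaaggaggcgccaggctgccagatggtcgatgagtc
Only the Rgs18 window of these 10 held the heptamer. The Myom2, Gm31371 and Pcmtd1 windows held 8, 9 and 6 CpG dinucleotides, whereas the Tnc, Has2 and Fggy windows held none.

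The next list gives, for each of the 10 intervals between neighboring coding genes with the most far peaks, the tallest peak with the heptamer in its window. These are shown because the heptamer was the most frequent of the sequences searched, and they were chosen after their values were seen.
Myc-Gsdmc interval, chr15:62328567-62328667: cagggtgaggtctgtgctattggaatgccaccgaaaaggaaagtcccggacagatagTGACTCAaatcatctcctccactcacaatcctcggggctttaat
Zeb2-Acvr2a interval, chr2:47074315-47074415: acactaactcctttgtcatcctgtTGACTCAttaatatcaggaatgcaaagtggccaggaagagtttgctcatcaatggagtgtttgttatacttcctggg
Klf4-Actl7b interval, chr4:56483747-56483847: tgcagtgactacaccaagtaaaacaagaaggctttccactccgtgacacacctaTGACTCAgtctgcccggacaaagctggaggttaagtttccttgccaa
Jag1-Btbd3 interval, chr2:137716043-137716143: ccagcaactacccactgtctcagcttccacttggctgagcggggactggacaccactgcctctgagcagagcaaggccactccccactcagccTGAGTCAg
Adamts5-N6amt1 interval, chr16:86853548-86853648: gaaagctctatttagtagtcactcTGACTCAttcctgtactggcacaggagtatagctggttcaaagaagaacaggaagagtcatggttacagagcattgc
Kcna4-Mettl15 interval, chr2:108032751-108032851: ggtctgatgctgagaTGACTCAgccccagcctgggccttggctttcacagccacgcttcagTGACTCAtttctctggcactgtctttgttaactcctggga
A1bg-Myc interval, chr15:61189661-61189761: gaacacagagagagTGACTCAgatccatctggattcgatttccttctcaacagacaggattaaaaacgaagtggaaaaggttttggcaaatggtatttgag
Kcnj2-Sox9 interval, chr11:112470540-112470640: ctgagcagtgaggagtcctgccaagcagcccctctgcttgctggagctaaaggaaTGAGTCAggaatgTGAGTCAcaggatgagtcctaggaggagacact
Nudt12-Efna5 interval, chr17:62504820-62504920: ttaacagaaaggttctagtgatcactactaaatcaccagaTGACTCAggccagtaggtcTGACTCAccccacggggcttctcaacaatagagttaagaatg
Nyap2-Irs1 interval, chr1:81987534-81987634: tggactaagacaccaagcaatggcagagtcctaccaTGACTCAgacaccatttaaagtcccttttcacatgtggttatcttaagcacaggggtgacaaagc
In the windows from the Kcna4-Mettl15, Kcnj2-Sox9 and Nudt12-Efna5 intervals the heptamer occurred at 2 positions.

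Sequence that met the same rule, outside coding genes and over 200 kb from a coding TSS, made up 509 Mb, or 21.2% of chromosomes 1 to 19 without N bases. It held 5.51% of the peaks of these chromosomes. Its density was 6.73 peaks per Mb, against 25.9 per Mb over the chromosomes as a whole. The far peaks together covered 0.225% of this sequence.

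The density of intergenic peaks was lower in each successive distance band. It was 33.9 per Mb (33.0 to 34.9) at 1 to 10 kb from a coding TSS, 23.9 at 50 to 100 kb and 16.3 at 100 to 200 kb. Among the far peaks it went from 10.9 per Mb (10.4 to 11.5) at 200 to 300 kb to 8.06 (7.62 to 8.52) at 300 to 500 kb and 4.20 (3.88 to 4.53) at 500 to 1000 kb. Beyond 1000 kb there were 117 peaks in 70.9 Mb, or 1.65 per Mb (1.36 to 1.98). Counted over sequence that is not soft-masked as repeats, the order was the same, from 48.0 per Mb at 1 to 10 kb to 15.6 at 200 to 300 kb and 2.28 beyond 1000 kb. The density of far sequence was 0.251 times that of intergenic sequence at 1 to 200 kb, and it was lower on all 19 chromosomes.

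The far peaks were nearly as tall as other peaks away from promoters. Their summits lay under a median of 24 fragments (quartiles 17 and 39, range 10 to 220), against 26 (18 and 44) for the 23582 intergenic peaks at 1 to 200 kb, called nearer intergenic peaks here, and 26 (18 and 42) for 20732 intronic peaks. The 13004 peaks within 1 kb of a coding TSS had a median of 54. From 1 kb outward the median height of the distance bands was 28, 26, 26 and 25 fragments up to 200 kb, then 24 at 200 to 300 kb and 23 at both 300 to 500 kb and 500 to 1000 kb. Height was thus lower or level in each band up to 1000 kb, over a much narrower range than density, and only the 117 peaks beyond it, with 27, went the other way. The order of far and nearer peaks depended on the measure. By fold enrichment, which divides the pileup by the local expectation after adding 1 to each, the far peaks had the higher median, 6.02 against 5.63. The median expected pileup was 2.81 fragments for far peaks and 3.57 for nearer ones. The former is the background that the peak caller uses across the genome, below which its expectation does not go, and 56.3% of the far summits were at it. Width was similar, with medians of 276 and 288 bp. Of the far peaks, 1277 (37.3%) had a pileup below 20 and 89 (2.60%) reached 100.

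**Figure D1:**
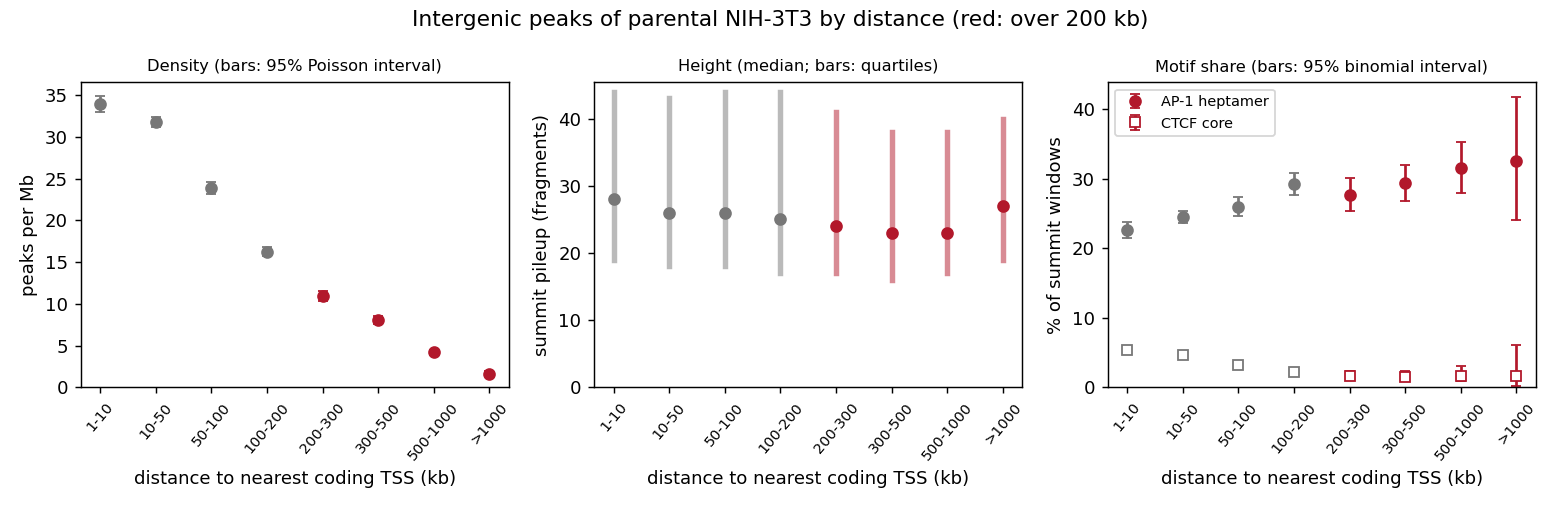
Intergenic peaks by distance to the nearest coding TSS (kb, horizontal axes), with far peaks in red: peaks per Mb, summit pileup in fragments, and percent of summit windows (50 bp to either side) with the AP-1 heptamer (filled circles) or the CTCF core (open squares). Density goes from 33.9 to 1.65 per Mb, median height stays between 23 and 28 fragments, the AP-1 share goes from 22.6% to 32.5% and the CTCF share from 5.34% to 1.71%.

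The tallest member, chr4:64497734-64498059, had 220 fragments at its summit where 5.44 were expected, a fold enrichment of 34.3. It lay 450885 bp from the TSS of Tnc, which encodes the matrix protein tenascin C, in the interval between Tnc and Pappa. No TGACTCA was found in its 326 bp, of which 34.0% were soft-masked as repeats. Copies of its sequence elsewhere in the genome were not searched for, so whether all 220 fragments came from this place was not tested. The peak chr1:7397657-7398657 reached 207 fragments and its summit was 155 bp from the TSS of the lncRNA gene Gm26901. The peak chr8:20121928-20122793, with 175, had its summit 86 bp from the start of the pseudogene Gm21769. These 2 were therefore far from coding TSSs but not from every annotated start.

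Other tall members had no GENCODE start within 5 kb. Among them was chr1:145344242-145345175, with 172 fragments, at 569158 bp from Rgs18, a regulator of G protein signaling. The peak chr15:56420470-56421239, with 167, lay 273679 bp from Has2, a hyaluronan synthase, and inside the RefSeq lncRNA gene Gm41326. The peak chr12:29290845-29291400, with 168, was nearest to the neuronal TF gene Myt1l. The peak chr15:67780754-67781364, with 165, was nearest to the zinc-finger gene Zfat. The peak chr4:95317675-95318271, with 158, lay in the interval between Jun, which encodes a subunit of AP-1, and Fggy. The peak chr9:11380292-11380860, with 156, lay 475912 bp from Cntn5, a neural adhesion gene, and held 3 copies of the heptamer, all outside its summit window. The peak chr8:15519831-15520088, nearest to Myom2, had 159 fragments over only 258 bp and the highest fold enrichment of the 10, 40.6. Whether all of these fragments came from this place was not tested. No far peak matched mitochondrial DNA over 80 bp or more. This search covered mitochondrial DNA only, and matches to other multicopy sequence, such as satellite repeats or ribosomal DNA, were not searched for.

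The member farthest from any coding TSS, chr14:82065398-82065564, lay 2065222 bp from Olfm4 and 1219744 bp from the nearest other peak. Its pileup was 11, near the lowest of the list. The next 4 were all in the Nudt12-Efna5 desert on chromosome 17, between 1740368 and 1885526 bp from the TSS of Efna5, a ligand of Eph receptors, with pileups of 21, 24, 11 and 28. The member just inside the distance limit was 200054 bp from its nearest coding TSS with a pileup of 71, and the intergenic peak just outside it was at 199947 bp with a pileup of 47.

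TGACTCA was, of the sequences searched, the one found most often at far summits. It occurred in 999 of the 3427 windows, or 29.2% (27.6 to 30.7). In windows 500 bp to either side the share was 1.71%, and in 101791 windows of the same length tiled every 5 kb over far sequence it was 1.33%. The summit share was thus 17.1 times that of the flanks. It was 25.03% (24.48 to 25.59) for nearer intergenic peaks, 26.9% (26.3 to 27.6) for intronic peaks and 5.59% for peaks at coding TSSs. The far share was above the nearer one on 15 of 19 chromosomes, and it ranged from 21.1% to 37.3% among chromosomes. The distance limit of 200 kb did not mark a step in it. By distance band the share was 22.6% at 1 to 10 kb, 24.5% at 10 to 50 kb, 25.98% at 50 to 100 kb and 29.2% (27.7 to 30.8) at 100 to 200 kb, which is also the share of the far peaks as a whole. Among the far peaks it was 27.6% (25.3 to 30.0) at 200 to 300 kb, 29.4% at 300 to 500 kb, 31.5% (27.9 to 35.3) at 500 to 1000 kb and 32.5% (24.1 to 41.8) beyond 1000 kb, and these intervals overlap.

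The heptamer was concentrated at the summit itself. In the 50-bp bins on either side of the summit, 15.5% and 15.9% of far peaks had it, whereas at 450 to 500 bp toward lower coordinates the share was 0.992%. The median distance from the summit to the closest copy in the window was 22 bp. Over whole peaks, 1509 (44.0%) had at least 1 copy and 280 (8.17%) had 2 or more, with a maximum of 4. Median height was 21 fragments without a copy, 26 with 1 and 36 with 2. Median width was 244.5, 301 and 419 bp in the same order, and a wider peak has more sequence in which to find a copy.

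**Figure D2:**
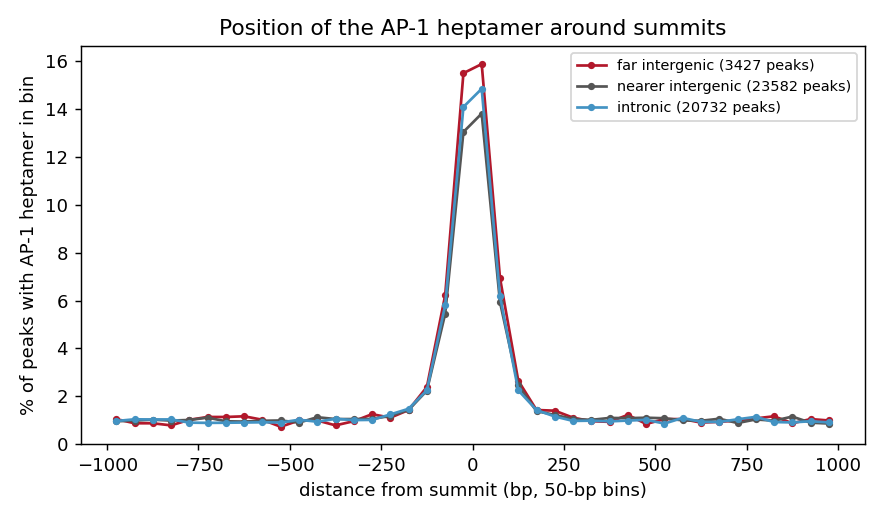
Percent of peaks (vertical axis) with the center of an AP-1 heptamer in each 50-bp bin by distance from the summit (bp, horizontal axis), for far intergenic, nearer intergenic and intronic peaks. In all 3 classes the share is highest in the bins at the summit, at 15.9% in far and 13.8% in nearer intergenic peaks, and near 1% beyond 500 bp.

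The far share was above the nearer one, with intervals that did not overlap, in the lower 3 of 4 classes of height. At a pileup of 10 to 18 the heptamer was in 23.7% (21.2 to 26.3) of far windows and 18.9% (18.0 to 19.9) of nearer ones. At 19 to 26 the shares were 30.9% (27.7 to 34.3) and 22.3% (21.2 to 23.4), and at 27 to 43 they were 32.0% (28.7 to 35.4) and 26.9% (25.8 to 28.1). Above 43 fragments they were 32.7% (29.4 to 36.3) and 32.3% (31.1 to 33.5), and these intervals overlap. By base composition, intervals overlapped in 2 of 3 classes of GC content. The far and nearer shares were 29.2% (26.6 to 31.8) and 26.2% (24.9 to 27.4) at low GC, 31.8% (29.2 to 34.5) and 27.5% (26.4 to 28.6) at middle GC, and 25.9% (23.3 to 28.8) and 23.1% (22.4 to 23.9) at high GC.

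**Figure D3:**
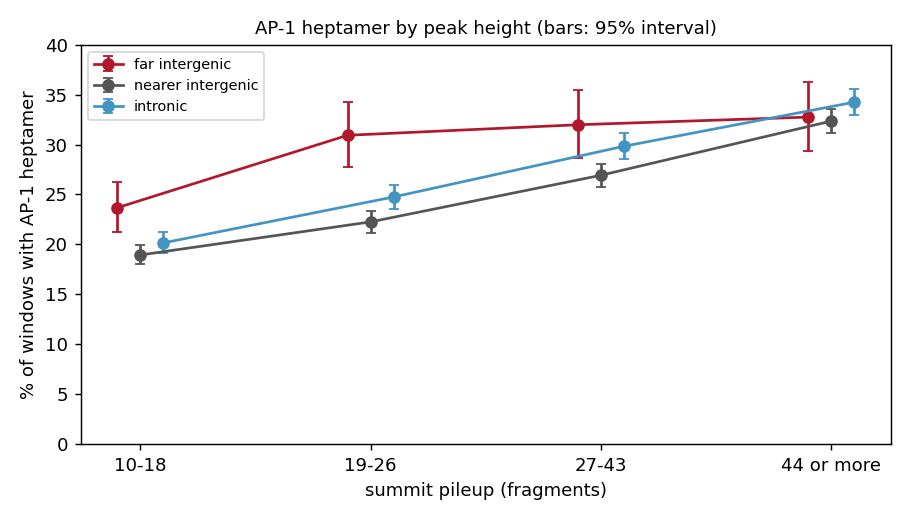
Percent of summit windows with the AP-1 heptamer (vertical axis, 95% binomial intervals) by summit pileup in fragments (horizontal axis), for far intergenic, nearer intergenic and intronic peaks. The far share is 23.7% in the lowest class and 32.7% in the highest, where all 3 intervals overlap.

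The bases beside the heptamer were compared with those of copies away from summits. A T before or an A after TGACTCA, read on either strand, was seen for 16.2% of the 1046 copies in far windows and 15.7% of the 6175 copies in nearer ones. Among 1767 copies in the windows 500 bp from intergenic and intronic summits it was 34.9%. The extended form TTGACTCAA made up 0.765% of the copies at far summits and 5.32% of those in the flanks.

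Far windows without the heptamer often had a close relative of it. Among all sequences of 7 letters in at least 50 of these 2428 windows, TGAATCA had the highest ratio to the flanks, 6.60. The next was TGACTAA, at 6.31. Each differs from the AP-1 heptamer at a single position. Over all far windows TGAATCA was in 9.86% (8.88 to 10.9), against 6.14% (5.84 to 6.45) of nearer ones. TGACTAA was in 6.94% of far and 5.80% of nearer windows. Any of the 3 heptamers was found in 42.2% (40.6 to 43.9) of far windows, 34.7% (34.1 to 35.3) of nearer windows and 4.64% of far flanks. The shares of the variants were not split by GC content, which had a median of 45.5% in far and 49.5% in nearer windows.

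CTCF showed the reverse order. The core of the CTCF motif was found in 55 far windows, or 1.60% (1.21 to 2.08), against 4.19% (3.93 to 4.45) of nearer and 3.51% of intronic windows. A single flanking window held it. The share was 5.34% at 1 to 10 kb from a coding TSS, 2.22% at 100 to 200 kb and between 1.52% and 1.71% in the far bands. It was lower in far peaks on 18 of 19 chromosomes and in each class of GC content, at 0.660% against 1.72%, 1.33% against 3.35% and 3.07% against 5.68%. The 55 peaks had pileups of 13 to 42, and none of the 739 far peaks above 43 fragments held the core, which allows a share of up to 0.406% if a count of 0 is taken to allow 3 windows. In nearer and intronic peaks the share was also lowest above 43 fragments, at 1.12% and 0.843%. At 19 to 26 fragments it was 7.16% and 5.81% in these 2 classes. None of the 55 far peaks with the core held TGACTCA in the same window.

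The remaining sequences were searched in the same windows on both strands. TGGAATG, bound by TEAD factors of the Hippo pathway, was in 3.47% (2.88 to 4.14) of far windows and 1.94% of their flanks. AACCACA, bound by RUNX factors, was in 5.05% (4.34 to 5.83) and 2.20%. The E-box CAGCTG, bound by basic helix-loop-helix factors, was in 6.59% and 3.25%, and the E-box CACGTG, bound by factors such as MYC and USF, in 1.37% and 0.963%. The CEBP sequence TTGCNNAA was in 5.54% (4.80 to 6.36) of summits and 4.92% of flanks, a difference within the interval. The CArG box of SRF was in 0.759% and 0.496%, and the ETS sequence CCGGAAGT in 0.409% and 0.102%.

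Sequences typical of CpG-rich promoters were infrequent. GGGCGGGG, bound by SP and KLF factors, was in 0.554% of far windows, against 12.9% of windows at coding TSSs. The CRE TGACGTCA, bound by CREB and ATF factors, was in 3 far windows and GCGCATGC, bound by NRF1, in 2. The NFI palindrome was also in 2. Among families to which the overexpressed TFs belong, the SOX sequence AACAATG was in 3.47% (2.88 to 4.14) of far windows, 2.07% of flanks and 2.51% of nearer windows. The forkhead sequence TGTTTAC was in 2.22% (1.75 to 2.77), 1.62% and 1.67%. The POU octamer ATGCAAAT was in 0.671% of summits and 0.846% of flanks, and the T-box sequence AGGTGTGA was in 0.350% of each. CCATAAA, bound by CDX factors, was in 1.14% of summits and 1.77% of flanks. AGATAAG, bound by GATA factors and searched for comparison, was in 0.905% and 1.75%, so these 2 were less frequent at the summit than beside it. TTACGTAA, bound by PAR bZIP factors such as HLF, was in none, which allows a share of up to 0.0875% if a count of 0 is taken to allow 3 windows, or 0.108% by the exact interval. A match describes the letters in the window and not a bound factor. Summits and flanks were compared without regard to base composition, and far summits were richer in GC than tiled windows of far sequence. The sequences overlap in part, since CRE and AP-1 sites share letters.

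**Figure D4:**
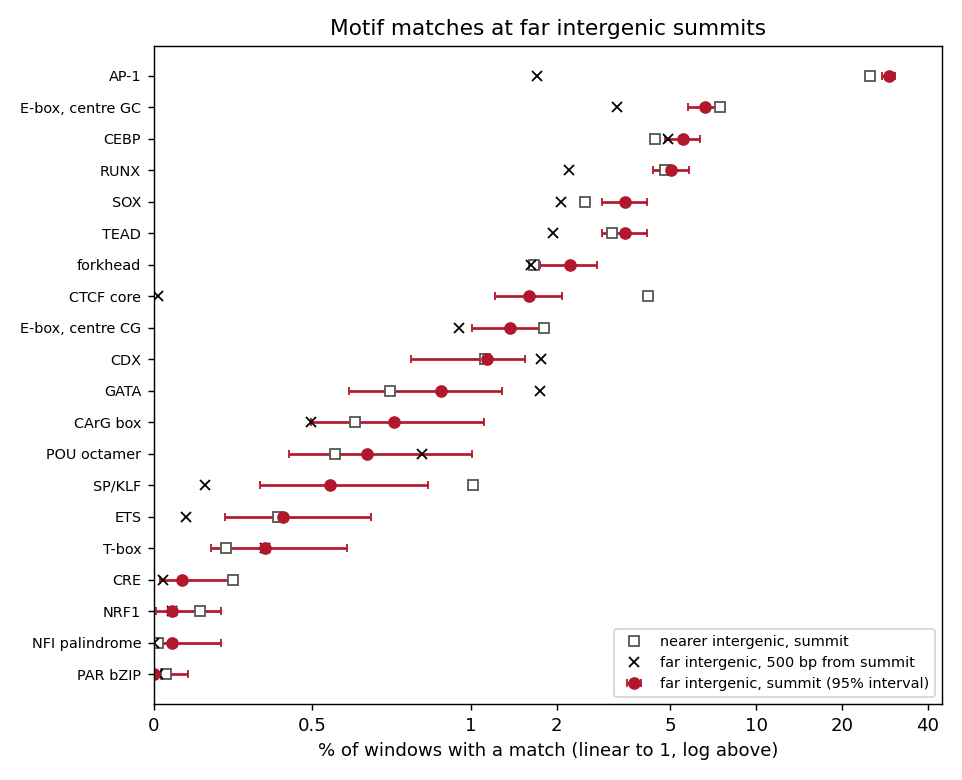
Percent of windows with each of 20 motifs (horizontal axis, linear to 1% and logarithmic above) at far intergenic summits with 95% intervals, at nearer intergenic summits, and 500 bp from far summits. AP-1, at 29.2% against 1.71% in the flanks, stands to the right of all others, and the CTCF core is at 1.60% in far and 4.19% in nearer windows.

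Far summits were richer in GC than the desert around them. Their windows had a median GC content of 45.5%, against 38.6% for tiled far windows and 49.5% for nearer peaks. Soft-masked repeats took up 13.7% of the bases of far windows, 39.6% of those of tiled windows and 13.1% of nearer windows. The GC content went from 50.5% at 1 to 10 kb to 44.6% beyond 1000 kb. Only 242 far peaks were more than 50% soft-masked.

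Many far peaks lay in long noncoding RNA (lncRNA) genes, which are transcribed without encoding a protein. The summit was inside one for 588 peaks, or 17.2% (15.9 to 18.5), while such genes made up 9.05% of far sequence. With pseudogenes, small RNA genes and other noncoding models the share was 18.2% (16.9 to 19.5) on 10.0% of the sequence. Density was 12.2 peaks per Mb inside noncoding genes and 6.12 per Mb outside every annotated gene. A summit within 1 kb of a noncoding TSS was found for 139 peaks (4.06%), on 1.75% of the sequence.

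The 139 peaks near a noncoding TSS were of a height like that of the other far peaks. Their median pileup was 25, against 23 for the 2728 peaks outside annotated genes and over 1 kb from a noncoding TSS. GC content above 50% together with a CpG ratio above 0.6 was seen in 12.2% of them, against 1.36% of the 2728 and 63.6% of peaks at coding TSSs. The heptamer was in 22.3% (15.7 to 30.1) of them and 28.9% (27.2 to 30.7) of the 2728. The lncRNA gene with the most far peaks was 3110039I08Rik on chromosome 9, with 25. Pvt1, the lncRNA gene next to Myc, held 14, the tallest at 138 fragments. The gene 2610035D17Rik, in the desert next to Sox9, also held 14.

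Far peaks were unevenly shared among deserts, the name used here for any interval between neighboring coding genes that has far sequence. Some of these are short, such as the 0.0247 Mb between Caln1 and Galnt17, which held 3 far peaks. Intervals between neighboring coding genes with far sequence numbered 845, and 325 of them, with 24.9% of that sequence, held none of the peaks. The 77 fullest intervals held 50% of the peaks on 15.9% of the far sequence. The 10 fullest held 407 peaks, or 11.9%, on 2.94% of it. Without these 10 the share of windows with TGACTCA was 29.0%, close to that of the whole.

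The fullest interval lay between Myc, the growth-promoting TF gene, and Gsdmc on chromosome 15 and held 57 far peaks at 40.1 per Mb (30.4 to 52.0). Their pileups ran from 10 to 138 with a median of 23, and 40 of the summits were in lncRNA genes, 15 of them in Gm41335 and 14 in Pvt1. The interval on the other side of Myc, toward A1bg, held 38 at 57.4 per Mb (40.6 to 78.7), the highest density of the 10. Myc was the nearest coding gene of 49 far peaks in all, more than any other gene.

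The interval between Zeb2, a repressor of epithelial genes, and the activin receptor gene Acvr2a held 49 far peaks over 3.30 Mb, or 14.9 per Mb (11.0 to 19.7). With a median of 32 fragments they were taller than the far peaks as a whole, and 38 of them were nearest to Zeb2. The interval between the TF gene Klf4 and Actl7b held 42 on 0.808 Mb. The interval between the Notch ligand gene Jag1 and Btbd3 held 41 on 0.740 Mb, up to 127 fragments, and 9 of them were in the lncRNA gene Gm14064. The interval between Adamts5, a protease of cartilage matrix, and N6amt1 also held 41, and 18 of these windows (43.9%) had TGACTCA. The interval between the potassium channel gene Kcna4 and Mettl15 held 40, with TGACTCA in 17.

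The interval between Kcnj2 and Sox9, the TF gene of cartilage and male gonad development, held 34 far peaks at 25.8 per Mb, of which 24 were nearest to Sox9. The interval between Nudt12 and Efna5 held 33 over 3.39 Mb, at 9.73 per Mb, the lowest density of the 10. The interval between Nyap2 and Irs1, an adaptor of insulin signaling, held 32, as did the one between Mctp2 and Rgma, which shared its rank. TGACTCA was in 6 of the 32 windows at Nyap2-Irs1 and 6 of the 38 at A1bg-Myc. Among the 10 fullest intervals its share ran from 15.8% at A1bg-Myc to 43.9% at Adamts5-N6amt1. These are the extremes of small counts, and whether full deserts differed beyond counting error was not tested.

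**Figure D5:**
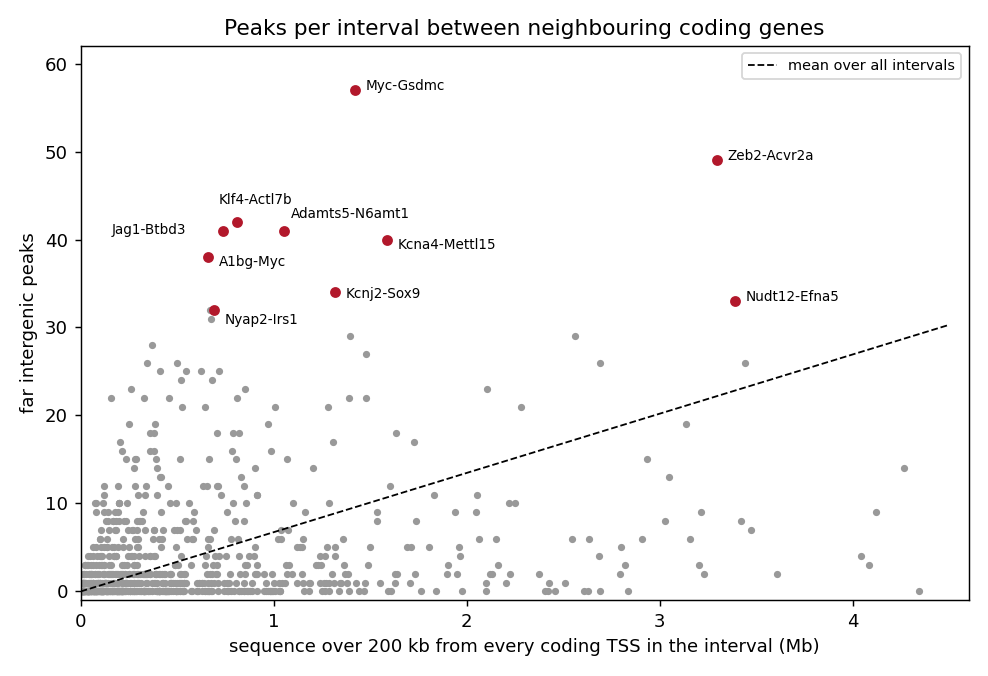
Number of far intergenic peaks (vertical axis) against the length of far sequence in Mb (horizontal axis) for 845 intervals between neighboring coding genes, with the 10 fullest in red and the mean density of 6.73 per Mb as a dashed line. The Myc-Gsdmc interval has 57 peaks on 1.42 Mb, and the interval with the most far sequence, 4.34 Mb, has 0.

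Long deserts could also be empty. The interval with the most far sequence, 4.34 Mb between the protocadherin genes Pcdh20 and Pcdh9 on chromosome 14, held no peak of any kind over its 4.54 Mb. The interval between Nxph1 and Ndufa4, with 2.46 Mb of far sequence, and that between Lingo2 and 1700009N14Rik, with 2.10 Mb, held none either. Among the 155 intervals with at least 1 Mb of far sequence, density ranged from 0 to 40.1 per Mb.

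Deserts between genes with open promoters held more far peaks per Mb. Where both flanking genes had a peak within 1 kb of a TSS, the density was 13.0 per Mb (12.3 to 13.7) over 192 intervals. With 1 such gene it was 5.93 (5.63 to 6.24) over 416 intervals, and with none it was 3.06 (2.78 to 3.36) over 228. Intervals without a far peak made up 23.4%, 39.4% and 49.1% of these groups. Peaks cluster within intervals, so the Poisson intervals are too narrow as a measure of spread among deserts. The median density per interval was 10.8, 2.28 and 0.730 per Mb in the same order, and the quartiles overlapped.

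Of a list of 151 genes for developmental TFs and signaling molecules, 80 flanked a desert. The 99 intervals next to such a gene held 755 far peaks, or 22.0%, on 10.5% of the far sequence. Their density was 14.1 per Mb (13.1 to 15.2), against 5.87 (5.65 to 6.09) in the other 746. Where both flanking promoters had a peak the values were 15.07 and 12.46 per Mb. Where 1 did they were 16.4 and 4.91, and where none did they were 4.55 and 2.97. Of the 10 fullest intervals, 5 had a listed gene at an end, namely Myc at 2 of them, Zeb2, Klf4 and Sox9. Among all 845 intervals, 99 had one. The list was chosen with earlier results of these data known, so it is not independent of them.

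Within deserts far peaks often had neighbors. The nearest other peak of any kind was at a median of 8887 bp (quartiles 2894.5 and 28634), against 5642 bp for nearer intergenic peaks. Another peak lay within 10 kb for 1785 far peaks, or 52.1% (50.4 to 53.8), and for 68.3% of nearer ones. No other peak lay within 100 kb for 346 far peaks (10.1%), against 1.44% of nearer ones. Far peaks with a neighbor within 10 kb had a median of 26 fragments and those without one 21. The peaks with none within 100 kb, which are part of the latter, had 19.5. TGACTCA was in 27.5% (25.4 to 29.6), 31.0% (28.8 to 33.3) and 26.6% (22.0 to 31.6) of the windows in the same order.

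Joined at gaps of up to 10 kb, the far peaks formed 2333 groups, of which 1659 were single peaks and 47 had 5 or more. The largest, chr1:71936770-71990614, had 12 peaks over 53.8 kb between Fn1, which encodes the matrix protein fibronectin, and Mreg. They reached 115 fragments, and 3 of the 12 windows had TGACTCA. A group of 9 lay in the Nyap2-Irs1 desert, with 1 such window. Another group of 9, chr12:16145502-16170997 between Trib2 and Lpin1, had the highest summed pileup of the 10 largest groups, 692 fragments over 25.5 kb. Groups of 8 lay in the Pgrmc2-Jade1, Xylt1-Rps15a and Ndfip2-Spry2 intervals. Groups of 7 lay, among others, in the Papss1-Dkk2, Saraf-Dusp4 and Ubash3b-Sorl1 intervals. Another group of 7, at chr1:45020594-45042090, was nearest to Col3a1, which encodes a fibrillar collagen, at 269500 bp or more.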

How the data were processed

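ATAC-seq of 1 library of parental NIH-3T3 cells was analysed. According to the methods and the submitters' processing notes, STAR 2.5.3a placed the read pairs on mm10, of which the authors retained unique alignments, duplicates were dropped with Picard, and MACS2 2.1.1.20160309 called peaks on whole fragments. A summit therefore marks the highest fragment coverage and not Tn5 cuts, and repeats that cannot be mapped uniquely are under-represented. The authors deposited for each peak a fold enrichment (a ratio of summit pileup to local expectation), −log10 p and −log10 q values, and a score. The lowest −log10 q was 1.30.

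The pileup at each summit was derived by solving its fold enrichment and −log10 p together, a step tested on simulated data, and 99.997% came within 0.02 of a whole number. The number of reads of the library is not given in the list, so these pileups are its only measure of depth. Distances are from the summit to TSSs of GENCODE M21, and immunoglobulin segments are not protein-coding there. Density is per Mb of sequence under the same rule without N. Motifs were searched on both strands in windows of 50 bp to either side of the summit in the GRCm38 reference. Mitochondrial matches used BLAST 2.17.0 (e-value 1e-10). Tables were made with Python 3.11.15 (SciPy 1.17.1, pandas 2.3.3, NumPy 2.4.6) and plots with matplotlib 3.10.9.

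No group of samples was compared and no test was made. Members, motifs and gene lists were chosen with earlier results of these data known. Named were the 10 tallest peaks, the 10 fullest intervals, the 5 farthest peaks, the peaks at the distance limit and every motif searched. Lists of lncRNA genes, groups, empty intervals, heptamer variants and the 10 kb limit for neighbors were added after the values were seen. Alternatives were stricter q and fold thresholds, other distances, window widths, annotations and measures of height.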

Additional observations from a re-analysis of the deposited data

How the results depend on the processing

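No paired analysis was possible because a single library, with no partner sample, had a file used here. Of 47 alternatives, 28 stayed within 1.5 times the count or within the counting interval, 18 moved further and 1 turned the order. The number of far peaks was 2131 at a fold enrichment of at least 5, 6801 over 100 kb, 761 over 500 kb and 134 when all annotated genes, noncoding ones included, had to be as far. Density relative to nearer intergenic sequence, 0.251, became 0.267, 0.316, 0.150 and 0.167 in the same order. The ratio of median height, far over nearer, was 0.923 by pileup, 1.07 by fold enrichment, which turned the order, and 0.938 by −log10 q. Fold enrichment divides by the expectation, which for 56.3% of far peaks was the background of the peak caller. The share of windows with TGACTCA, 29.2%, was 30.9% at a q of 1e-05, 31.8% at a fold enrichment of at least 5, 31.7% over 500 kb, 15.1% in windows of 25 bp and 39.9% in windows of 100 bp to either side. With both variant heptamers, added after seeing the data, it was 42.2%. The ratio of this share to that of nearer peaks, 1.16, was 1.09 at a fold enrichment of at least 5 and 1.25 over 500 kb, and above 1 under every alternative run. The share inside noncoding genes, 18.2%, was 14.2% over 500 kb. With 1 library, the spread between cultures is unknown, and a peak below the threshold of the list is not counted as open.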

Other observations

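The desert between Adam6a and Zfp386 on chromosome 12, which holds the variable segments of the immunoglobulin heavy chain, had 23 far peaks. These segments are joined and expressed in B cells. They were low, with pileups from 11 to 27 and a median of 16, a median fold enrichment of 3.64 and a median width of 133 bp. None of the 23 summit windows had TGACTCA, and 2 of the peaks had it elsewhere. Of the summits, 3 were inside an annotated gene. This interval was singled out after its values were seen, and its near-identical segments were not examined for mapping.

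Chromosomes differed in far peak density. It was 15.8 per Mb (14.2 to 17.4) on chromosome 13, 11.4 on chromosome 2 and 10.9 on chromosome 15, against 3.58 (2.96 to 4.29) on chromosome 14 and 2.21 (1.29 to 3.55) on chromosome 19, where only 17 far peaks were found. On chromosome 13, 31 far peaks were nearest to the TF gene Klf6 and 30 to Inhba, which encodes a subunit of activin.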
